A study of Mus musculus with 19 samples.

Results

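The keratins of hepatocytes and of the bile duct lining, together with surface and transport genes of the duct epithelium, were followed in bulk liver RNA. The 9 genes were chosen by symbol (Krt7, Krt19, Krt8, Krt18, Krt23, Epcam, Sox9, Cldn4 and Cftr) from the 55836 genes of the deposited count table. The livers came from male C57BL/6 mice labelled WT, 8 weeks old when the experiment began, that ate a control diet (CD, a low-fat purified diet that the labels call chow) or a MASH diet (MD, rich in fat, fructose and cholesterol) for 8 weeks and received a daily oral gavage. The gavage was either vehicle (Veh, dilute Tween 20) or 2 mg of polyethylene microplastic particles (PE) in that vehicle. There were 4 libraries of CD + Veh, 5 of CD + PE, 5 of MD + Veh and 5 of MD + PE, and the replicate numbers below are those of the labels. All groups received the gavage, and no label names an engineered allele.

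Keratins pair a type I with a type II chain to build the intermediate filaments of epithelial cells. Hepatocytes use a single pair, Krt8 (type II) with Krt18 (type I). Cholangiocytes, the cells that line the bile ducts, add Krt7 (type II) and Krt19 (type I) and carry the adhesion molecule Epcam, the tight junction protein Cldn4 and the chloride channel Cftr. Sox9 is the transcription factor of the duct lineage, and Krt23 is a type I keratin known from stressed liver. In fatty liver disease Krt8 and Krt18 can aggregate into the inclusions called Mallory-Denk bodies, and duct cells can multiply at the portal tract. In whole liver RNA, fewer cells of a type and less RNA per cell cannot be told apart.

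The libraries held between 10398820 and 15456729 estimated counts, and the PE libraries were the shallower ones, with group medians of 10837229 on CD and 11615001 on MD against 15089731.5 and 14790140 with vehicle. All libraries carried the batch label B1. The vehicle libraries were numbered 39 to 47 and the PE libraries 48 to 57, so that PE and library order cannot be told apart. The summed level of 10 hepatocyte genes ranged from 52331 to 97764 CPM (counts scaled to the library's size) over the 18 libraries other than MD + PE 2. Group medians over all libraries, MD + PE 2 included, were 85190 and 85630 in the CD groups and 68279 and 60254 in the MD groups (vehicle, then PE). One library, MD + PE 2, stood apart in the duct genes and in genes of the stomach and gallbladder mucosa, and results that rest on it are given with and without it. The labels do not say that replicates came from separate animals, and p-values measure the spread between these libraries.

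Of the 7 genes that could be tested, 2 passed the edgeR test as higher on the MASH diet, both of them keratins. With vehicle 1 of 7 passed (Krt23), beside 10.4% of all tested genes. With PE 2 of 7 passed (Krt23 and Krt8), beside 4.61% of all tested genes. Krt23 was 3.32-fold higher in mean CPM in MD + Veh than in CD + Veh and 8.07-fold higher in MD + PE than in CD + PE. Krt8 was 1.67-fold higher in MD + PE than in CD + PE. None of the 7 passed the edgeR test for PE on either diet, whereas DESeq2 called 1, Epcam, for PE on MD with all libraries in. Krt7, Krt19, Epcam, Cldn4 and Cftr reached at least 6.11 times the level of any other library in MD + PE 2, and without that library their MD + PE levels overlapped those of the other groups.

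The genes differed widely in level. Per kilobase of transcript, mean CPM in CD + Veh was 102 ± 15.4 (SD, n = 4) for Krt8 and 97.0 ± 5.95 (SD, n = 4) for Krt18, and these neighbours did not differ beyond their spread. The duct genes lay far lower on the same per-kilobase scale, with Krt19 at 1.92 ± 2.18, Sox9 at 1.73 ± 0.475 and Epcam at 1.34 ± 0.603 (SD, n = 4 each), again within each other's spread. Krt23 followed at 0.371 ± 0.144 and Krt7 at 0.290 ± 0.163 (SD, n = 4 each). Cftr at 0.0382 ± 0.0353 and Cldn4 at 0.0264 ± 0.0330 (SD, n = 4 each) were at the edge of detection, with counts of 0 to 13 and 0 to 3 outside MD + PE 2. A count of 0 allows a level of up to 3 counts, or 0.186 to 0.301 CPM depending on the library. Of the 9 genes, 7 passed the filter on low counts and entered the test over 13597 genes, and Cldn4 and Cftr did not.

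**Figure D1:**
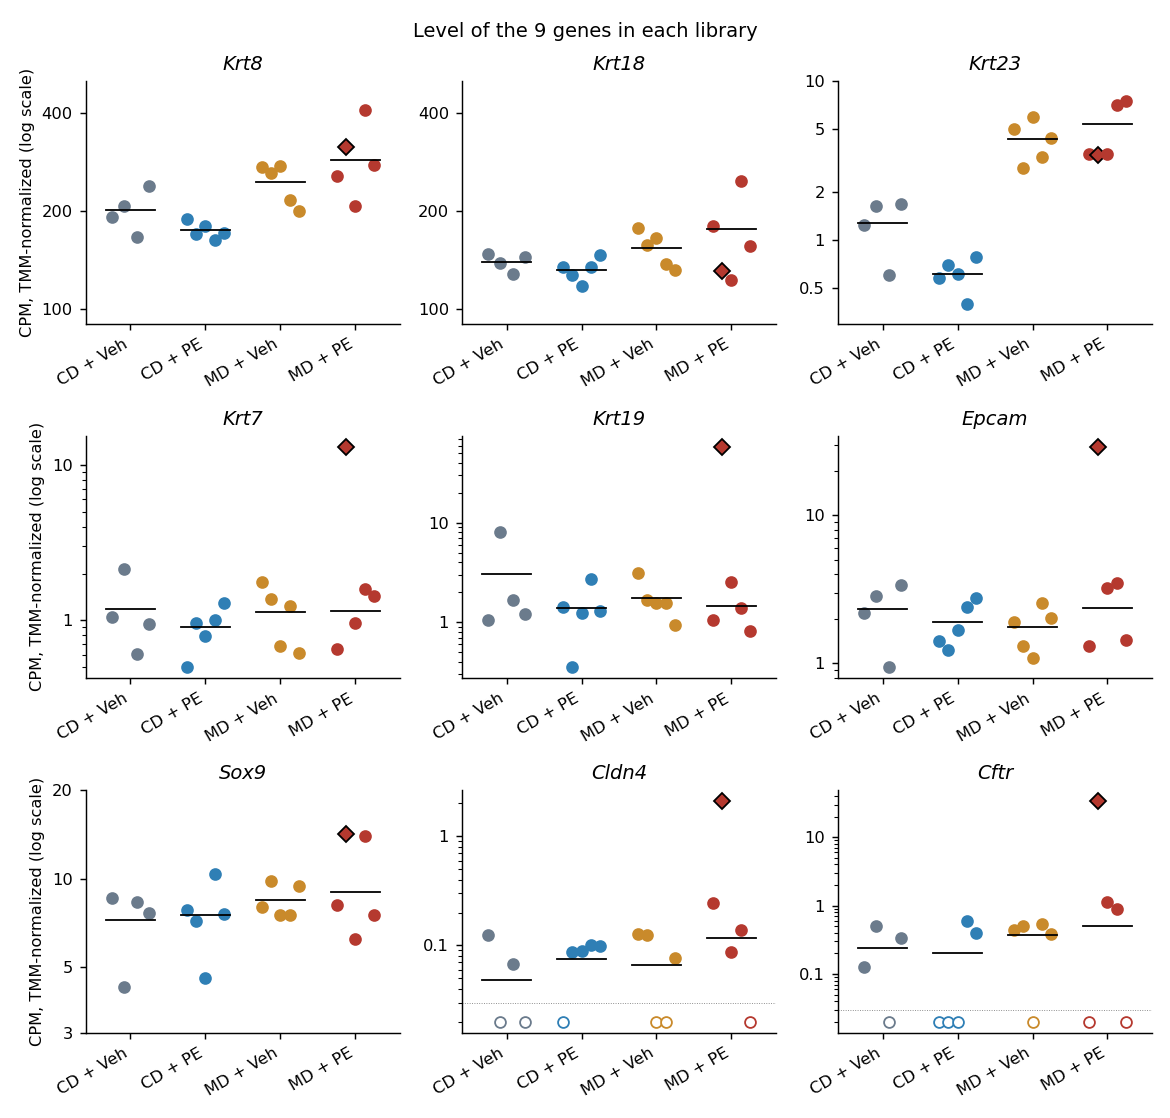
Level of the 9 genes in each library, as TMM-normalized CPM on log axes that differ between panels; points are libraries in replicate order, the diamond is MD + PE 2, lines are group means without that library, and open points below the dotted line are libraries with a count of 0. Krt23 lay higher in every MD library than in any CD library, whereas Krt7, Krt19, Epcam, Cldn4 and Cftr stood out in MD + PE 2. Krt19 was also high, at a lower level, in CD + Veh 2 (8.17 CPM).

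The genes were placed on GRCm39, the build used for the deposited counts, with the GENCODE vM39 annotation. Krt8 (ENSMUSG00000049382, chr15:101905133-101912917, minus strand, 9 exons) and Krt18 (ENSMUSG00000023043, chr15:101936615-101940462, plus strand, 7 exons) lie 23698 bases apart and point away from each other, so that the hepatocyte pair shares a stretch of intergenic DNA. Krt7 (chr15:101308924-101328194, plus strand) lies in the same cluster, 576939 bases from Krt8. Krt23 (ENSMUSG00000006777, chr11:99366873-99383963, minus strand, 8 exons) and Krt19 (chr11:100031636-100039491, minus strand) lie 647673 bases apart in the type I cluster, and Sox9 (chr11:112673009-112678586, plus strand) is farther along that chromosome. Epcam lies at chr17:87943407-87958557 (plus strand), Cldn4 at chr5:134973973-134975788 (minus strand) and Cftr at chr6:18170686-18322767 (plus strand). Annotated noncoding genes that overlap Krt7, Krt8, Sox9 or Cftr had at most 1 count in any library, and the pseudogene Krt8-ps had at most 4.

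The 250 bases before the start of the canonical transcript are shown for Krt8 and Krt23, which rose on the MASH diet, and for Krt18, the partner of Krt8, from the GRCm39 genome and 5′ to 3′ on the gene's own strand. The capitals mark AGGTCA, the core motif that nuclear receptors recognise. The windows are chr15:101912918-101913167 for Krt8, chr15:101936365-101936614 for Krt18 and chr11:99383964-99384213 for Krt23.
Krt8: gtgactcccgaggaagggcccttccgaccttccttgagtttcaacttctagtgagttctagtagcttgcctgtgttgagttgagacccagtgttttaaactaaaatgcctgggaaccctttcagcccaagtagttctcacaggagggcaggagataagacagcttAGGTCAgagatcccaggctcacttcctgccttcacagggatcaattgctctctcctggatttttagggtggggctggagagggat
Krt18: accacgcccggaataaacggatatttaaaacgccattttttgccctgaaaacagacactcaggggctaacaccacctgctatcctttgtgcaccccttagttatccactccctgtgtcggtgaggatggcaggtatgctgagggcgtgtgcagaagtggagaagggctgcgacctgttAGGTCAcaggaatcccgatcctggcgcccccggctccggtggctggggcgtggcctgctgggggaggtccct
Krt23: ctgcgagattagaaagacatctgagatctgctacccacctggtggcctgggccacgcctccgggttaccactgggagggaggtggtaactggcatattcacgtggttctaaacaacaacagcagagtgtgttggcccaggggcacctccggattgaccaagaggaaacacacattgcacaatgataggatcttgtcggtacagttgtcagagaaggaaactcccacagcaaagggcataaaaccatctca
The motif AGGTCA was found 85 bases before the start of Krt8 and 72 bases before that of Krt18. Both strands were searched for this motif, for the TATA box (TATAAA), the CCAAT box, the GC box (GGGCGG) and the AP-1 site (TGANTCA), and for sites of SOX (AACAAT), TEAD (GGAATG) and RBPJ (GTGGGAA) factors, and the Krt23 window held none of the 8. Of 21738 windows of this length before coding genes, 13.1% held AGGTCA. The windows had a GC content of 50.8% for Krt8, 58.4% for Krt18 and 52% for Krt23, against a median of 53.2% over all of them.

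Krt8, the type II chain of hepatocytes, measured 192, 207, 166 and 238 CPM in CD + Veh replicates 1 to 4. In CD + PE it measured 189, 170, 179, 163 and 171 CPM. The MD + Veh libraries measured 272, 262, 274, 216 and 200 CPM, and the MD + PE libraries 255, 313, 206, 407 and 276 CPM. Every MD + PE library was above every CD + PE library, MD + PE 4 was the highest of all, and the vehicle groups overlapped. The CD + PE mean was 174 ± 10.04 and the MD + PE mean 292 ± 75.3 CPM (SD, n = 5 each). With edgeR's quasi-likelihood test and Benjamini-Hochberg adjustment over all 13597 genes, this rise was 0.74 on the log2 scale (SE 0.14, adjusted p = 0.0031), and it was 0.72 (SE 0.15, adjusted p = 0.0098) without MD + PE 2. The level of hepatocyte genes moved as well. In MD + PE against CD + PE 4 of 10 (Alb, Apoa1, Ttr and Ass1) were called lower and 1 (Cyp3a11) higher, beside 4.61% of all tested genes. In MD + Veh against CD + Veh 3 were called lower (Alb, Apoa1 and Ass1) and 1 higher (Cyp3a11), beside 10.4%. For PE 1 of 10, Ass1, was called on each diet, beside 2.92% (CD) and 1.08% (MD) of all tested genes. Its log2 fold change was -0.56 on CD (adjusted p = 0.019 by edgeR) and -0.95 on MD (adjusted p = 0.00061). The part of the hepatocyte genes in the keratin values was not tested. The Krt8 of the vehicle groups did not pass the test, at 0.29 on the log2 scale (SE 0.15, adjusted p = 0.22).

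Krt18, the partner chain, measured 147, 138, 128 and 144 CPM in CD + Veh and 135, 127, 118, 135 and 146 CPM in CD + PE. In MD + Veh it measured 177, 157, 165, 137 and 132 CPM, and in MD + PE 179, 131, 123, 248 and 156 CPM. All 4 groups overlapped, and MD + PE 4 stood highest, as it did for Krt8. The log2 fold change of Krt18 was 0.14 (SE 0.15, adjusted p = 0.57 by edgeR) for MD + Veh against CD + Veh and 0.34 (SE 0.14, adjusted p = 0.16) for MD + PE against CD + PE. Neither passed the test. Without MD + PE 2 the second value was 0.42 (SE 0.14, adjusted p = 0.10).

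The ratio of Krt8 to Krt18 CPM compared the chains of the pair within each library. It was 1.30, 1.497, 1.30 and 1.65 in CD + Veh and 1.40, 1.33, 1.52, 1.21 and 1.17 in CD + PE. In MD + Veh it was 1.53, 1.67, 1.66, 1.57 and 1.51, and in MD + PE 1.42, 2.39, 1.68, 1.65 and 1.78. The ratio of MD + PE 2 was the highest of the 19, since that library ranked 2 in Krt8 and 15 in Krt18. On the log2 scale the ratio was higher by 0.41 in MD + PE than in CD + PE (two-sided exact permutation test, p = 0.016, adjusted over the 4 comparisons p = 0.063) and by 0.15 in MD + Veh than in CD + Veh (exact p = 0.095, adjusted p = 0.19). For PE on either diet the differences were -0.11 on CD (exact p = 0.32) and 0.15 on MD (exact p = 0.33), both with an adjusted p of 0.33. None of the 4 passed after adjustment, and the smallest p that these group sizes allow is 0.0079. Without MD + PE 2 the difference between MD + PE and CD + PE was 0.30 (exact permutation test, adjusted p = 0.13).

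**Figure D2:**
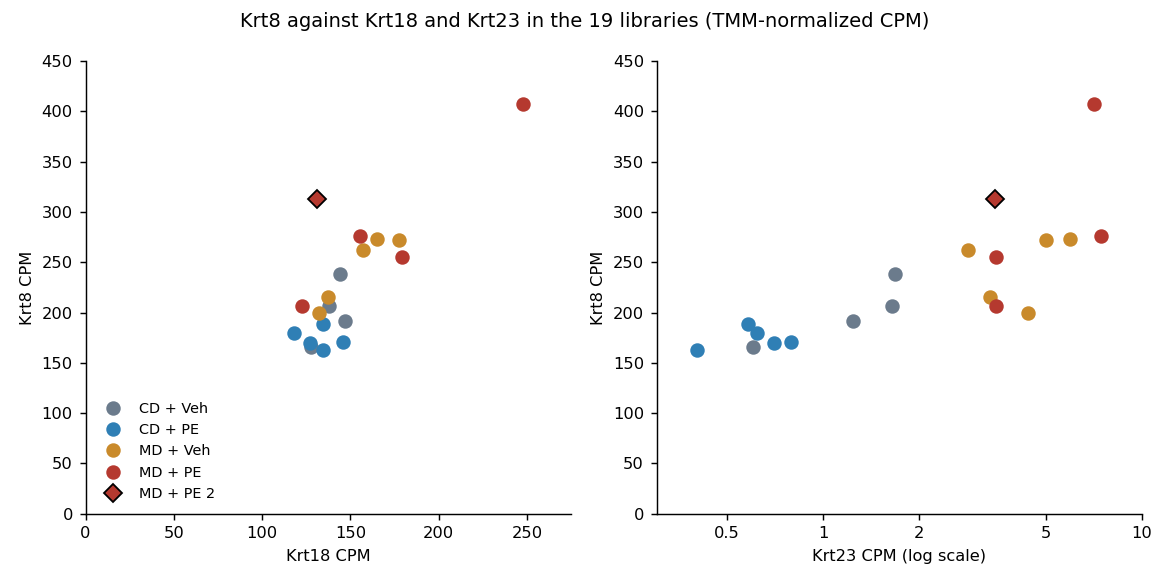
Krt8 CPM against Krt18 CPM and against Krt23 CPM (log axis) in the 19 libraries, coloured by group, with MD + PE 2 as a diamond; CPM is TMM-normalized. MD + PE 2 lay above the other libraries of similar Krt18, with 313 CPM of Krt8 at 131 CPM of Krt18, and within the MD libraries for Krt23.

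Krt23, the type I keratin outside the hepatocyte pair, was low on the control diet. It measured 1.24, 1.65, 0.60 and 1.68 CPM in CD + Veh and 0.58, 0.70, 0.62, 0.40 and 0.79 CPM in CD + PE. On the MASH diet it measured 5.01, 2.85, 5.93, 3.33 and 4.40 CPM with vehicle and 3.49, 3.45, 3.48, 7.07 and 7.45 CPM with PE. Every MD library was above every CD library, and within each diet the Veh and PE groups overlapped. The counts behind these values ran from 4 to 103 per library. The edgeR test gave a rise of 1.73 on the log2 scale (SE 0.33, adjusted p = 0.0014) for MD + Veh against CD + Veh and of 2.99 (SE 0.34, adjusted p = 1.3e-05) for MD + PE against CD + PE. Without MD + PE 2 the second rise was 3.10 (SE 0.35, adjusted p = 1.9e-05). For CD + PE against CD + Veh the log2 fold change of Krt23 was -1.05 (SE 0.37, adjusted p = 0.13), and the difference between the responses to PE on the 2 diets, the interaction of PE and diet, was 1.26 (SE 0.47, adjusted p = 0.42).

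The keratins of the duct lining were low in most libraries. Krt19 measured 1.06, 8.17, 1.68 and 1.21 CPM in CD + Veh and 1.41, 0.35, 1.24, 2.71 and 1.28 CPM in CD + PE. In MD + Veh it measured 3.11, 1.67, 1.57, 1.55 and 0.93 CPM, and in MD + PE 1.06, 58.7, 2.52, 1.37 and 0.81 CPM. MD + PE 2 was 42.2 times the median of the other 18 libraries, CD + Veh 2 came next, and the remaining libraries of all groups overlapped. Krt7, its type II partner, measured 1.06, 2.15, 0.60 and 0.94 CPM in CD + Veh, and 0.50, 0.96, 0.79, 1.00 and 1.28 CPM in CD + PE. In MD + Veh it measured 1.77, 1.36, 0.68, 1.24 and 0.62 CPM, and in MD + PE 0.65, 13.1, 0.96, 1.58 and 1.44 CPM. The order of the top libraries was the same as for Krt19, with MD + PE 2 at 13.3 times the median of the other 18 libraries and CD + Veh 2 next.

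Epcam, the adhesion molecule of the duct epithelium, measured 2.18, 2.87, 0.94 and 3.37 CPM in CD + Veh and 1.41, 1.23, 1.68, 2.41 and 2.77 CPM in CD + PE. In MD + Veh it measured 1.90, 1.30, 1.09, 2.55 and 2.01 CPM, and in MD + PE 1.30, 29.2, 3.22, 3.50 and 1.44 CPM. For Epcam MD + PE 2 was alone, at 14.9 times the median of the others, and the 18 other libraries lay between 0.94 and 3.50 CPM. Cftr, the chloride channel that drives bicarbonate secretion into bile, had 401 counts (33.8 CPM) in MD + PE 2. It had 13 counts in each of MD + PE 3 and MD + PE 4 (1.13 and 0.89 CPM), at most 8 in any other library and 0 in 7 libraries. Cldn4, the tight junction protein, had 25 counts (2.11 CPM) in MD + PE 2 and at most 3 in any other library. The median count of the other 18 libraries was 4.5 for Cftr and 1 for Cldn4, too few for an exact ratio.

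Sox9, the transcription factor, differed less between libraries. It measured 8.58, 4.30, 8.32 and 7.68 CPM in CD + Veh and 7.80, 7.19, 4.59, 10.3 and 7.61 CPM in CD + PE. In MD + Veh it measured 7.99, 9.79, 7.50, 7.51 and 9.42 CPM, and in MD + PE 8.13, 14.2, 6.26, 14.0 and 7.54 CPM. MD + PE 2 and MD + PE 4 were nearly level at the top, and all groups overlapped. The log2 fold change of Sox9 was 0.25 (SE 0.24, adjusted p = 0.67 by edgeR) for MD + PE against MD + Veh and 0.42 (SE 0.24, adjusted p = 0.33) for MD + PE against CD + PE.

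The comparisons of the duct genes turned on MD + PE 2. For MD + PE against MD + Veh the log2 fold change of Krt19 was 2.85 (SE 1.00, adjusted p = 0.16 by edgeR) with that library and -0.30 (SE 0.60, adjusted p = 0.89) without it. The corresponding values of Krt7 were 1.63 (SE 0.65, adjusted p = 0.22) and 0.02 (SE 0.40, adjusted p = 0.99), and those of Epcam 2.13 (SE 0.68, adjusted p = 0.12) and 0.43 (SE 0.38, adjusted p = 0.68). None passed the test either way. In the comparison with CD + PE, which shares the MD + PE libraries, the log2 fold changes with and without MD + PE 2 were 3.21 and 0.05 for Krt19, 1.96 and 0.36 for Krt7, and 2.03 and 0.33 for Epcam. With the library in, their adjusted p by edgeR was 0.073, 0.093 and 0.082. By DESeq2, Epcam was called in both comparisons and Krt7 in the second, with all libraries in.

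**Figure D3:**
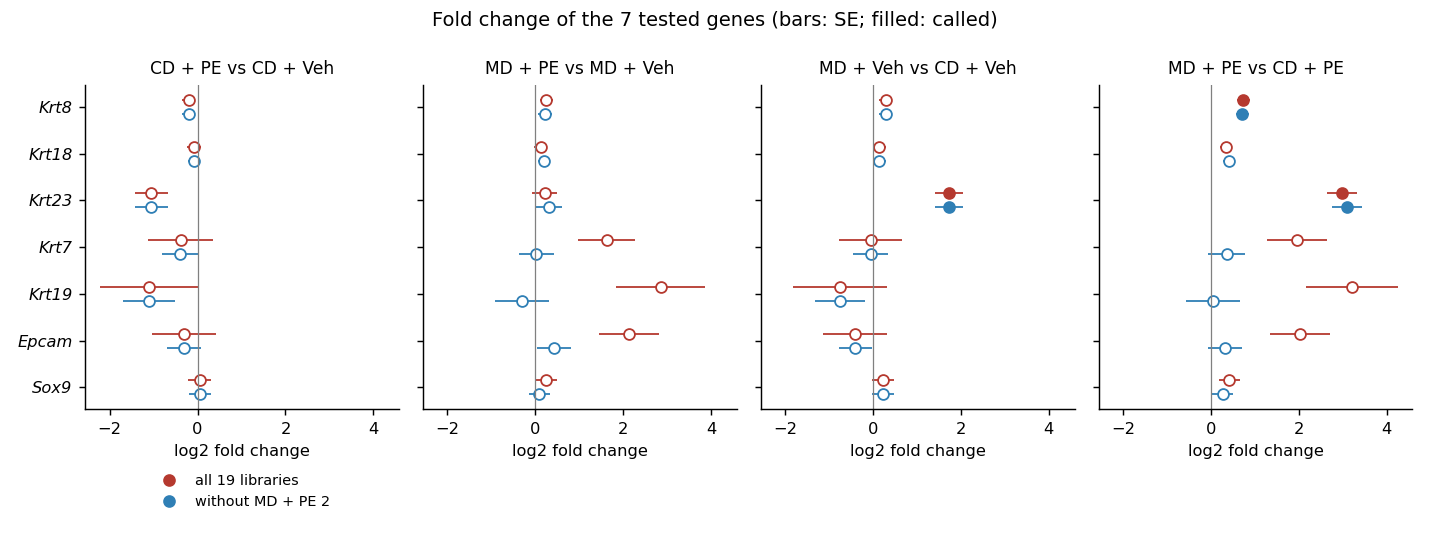
Log2 fold change of the 7 tested genes in 4 comparisons, from the edgeR fit of all 19 libraries and of the 18 without MD + PE 2; bars are the SE and filled points passed an adjusted p of 0.05 and a log2 fold change of 0.38. Krt19, Krt7 and Epcam moved towards 0 without MD + PE 2 in the MD + PE comparisons, and Krt8 and Krt23 stayed past the limits in MD + PE vs CD + PE.

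A gene was called where its adjusted p was below 0.05 and its log2 fold change at least 0.38 in size. For MD + Veh against CD + Veh 1 of the 7 tested genes was called (Krt23), where 10.4% of all tested genes were. For MD + PE against CD + PE 2 of 7 were called (Krt8 and Krt23), against 4.61% of all tested genes. There 6 of 7 had an unadjusted p below 0.05 and 3 of 7 did without MD + PE 2, beside 21.7% of all tested genes. For CD + PE against CD + Veh 0 of 7 were called by edgeR, against 2.92% of all tested genes. There 1 of 7, Krt23, had an unadjusted p below 0.05, beside 17.5% of all tested genes. DESeq2 gave an adjusted p for only 3 of the genes there and called 0 of 3, beside 524 of 9916 genes. For MD + PE against MD + Veh 0 of 7 were called, against 1.08% of all tested genes. Krt7, Krt19 and Epcam, 3 of 7, had an unadjusted p below 0.05 (15.7% of all tested genes), and 0 of 7 did without MD + PE 2. DESeq2 called 1 of the 6 genes it tested there, beside 303 of 14110 genes. For the interaction 0 of 7 were called, against 0.00735% of all tested genes. Krt8, Krt23, Krt19 and Epcam, 4 of 7, had an unadjusted p below 0.05 (8.77% of all tested genes), and 1 of 7 (Krt23) did without MD + PE 2. For the interaction DESeq2 called 0 of the 6 genes it tested, beside 82 of 13650 genes. The MD + Veh comparison shares no library with the MD + PE against CD + PE comparison, and Krt23 was called in both.

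Groups that did not overlap in CPM were also counted for the 9 genes. Krt23 did not overlap between MD + Veh and CD + Veh, where 16.2% of the 13597 tested genes did not, and Krt8 and Krt23 did not overlap between MD + PE and CD + PE, where 6.18% of tested genes did not. For PE on either diet all 9 genes overlapped, with and without MD + PE 2, where 7.83% of tested genes on CD and 3.57% on MD did not. The called rises of Krt8 and Krt23 kept their call in each of 19 fits that left out 1 library. Over those fits Krt8 ranged from 0.60 to 0.84 in MD + PE against CD + PE, and Krt23 from 2.81 to 3.10 there and from 1.49 to 1.89 in MD + Veh against CD + Veh, on the log2 scale.

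Other marker lists were read in the same libraries, beginning with 14 genes of stomach and gallbladder mucosa. Their summed level was 4440 CPM in MD + PE 2, 95.0 CPM in MD + PE 3 and at most 7.48 CPM in the other 17 libraries. In the CD groups it ranged from 0.622 to 4.44 CPM with vehicle and from 0.889 to 2.51 CPM with PE, and on the MASH diet from 1.11 to 2.41 CPM with vehicle and from 1.95 to 4440 CPM with PE. MD + PE 2 was the highest of the 19 libraries in 11 of the 14 genes. The mucin Muc6 reached 2295 CPM, the trefoil factors Tff2 and Tff1 959 and 150 CPM, and the gastrokines Gkn3, Gkn2 and Gkn1 502, 173 and 159 CPM. The parietal cell pump subunit Atp4b and the intrinsic factor gene Cblif had 0 counts there. For the 10 genes of the list with at least 5 CPM in MD + PE 2, the level in MD + PE 3 was 1.20% to 3.53% of that in MD + PE 2, with a median of 2.12%.

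Of 18 genes of intestinal epithelium, 16 were highest in MD + PE 2. Their summed level was 323 CPM there and between 62.1 and 134 CPM in the other 18 libraries, with ranges of 62.1 to 91.0 CPM (vehicle) and 73.7 to 106 CPM (PE) on CD and of 120 to 134 CPM (vehicle) and 117 to 323 CPM (PE) on the MASH diet. Fabp2, the intestinal fatty acid binding protein that liver also expresses, made up much of the sum at 118 CPM in MD + PE 2. Its own mean differed by diet, at 53.9 (vehicle) and 67.4 CPM (PE) on CD and 114 and 111 CPM on the MASH diet. By edgeR it was the 1 of 4 tested genes of the list called for diet. Its rise was 1.08 on the log2 scale with vehicle (adjusted p = 7.6e-06) and 0.72 with PE (adjusted p = 0.00044), beside calls in 10.4% and 4.61% of all tested genes. The brush border gene Vil1 at 22.7 CPM, the goblet cell mucin Muc2 at 16.5 CPM and the sucrase gene Sis at 20.9 CPM were at most 1.22 CPM in any other library. The level of none of the intestinal genes was 0 in MD + PE 2. Of 10 exocrine pancreas genes 9 had 0 counts in MD + PE 2, and most of these had a median of 0 in other libraries too. The sum of the 10 in MD + PE 2 was 8.51 CPM, all from Cela1, within the 5.65 to 21.0 CPM of the other 18 libraries. Whether these mucosal genes and the duct genes of MD + PE 2 have one source was not tested.

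**Figure D4:**
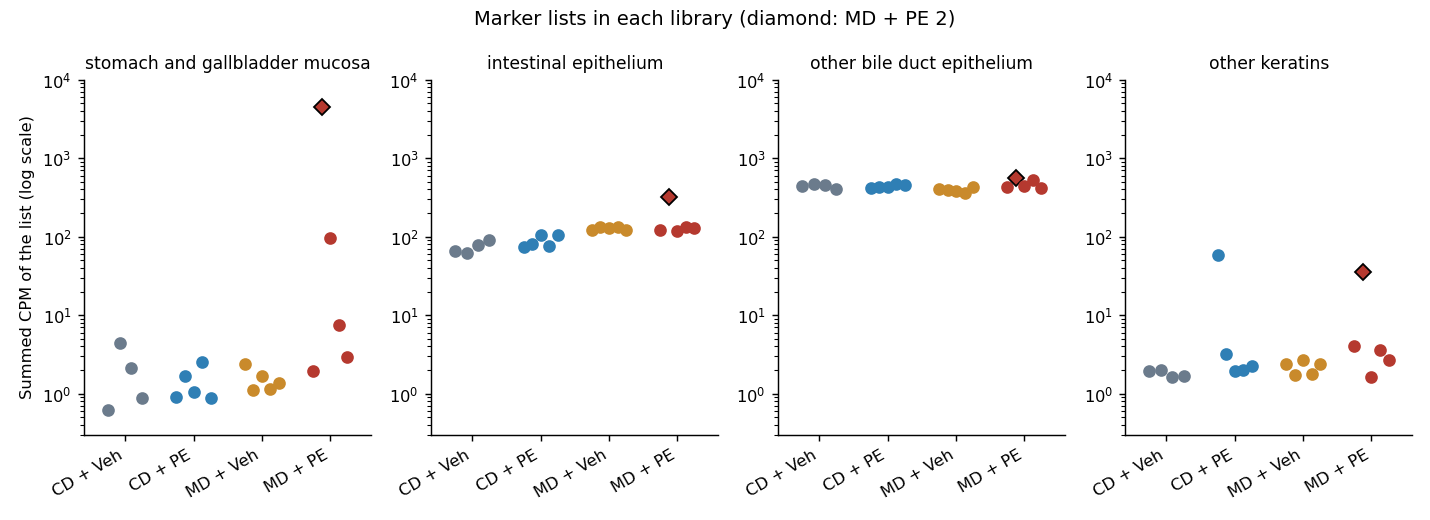
Summed CPM (log axis) of 4 marker lists in each library, with MD + PE 2 as a diamond. MD + PE 2 stood apart in stomach and gallbladder mucosa (4440 CPM, with MD + PE 3 at 95.0 CPM) and in intestinal epithelium (323 CPM); the other bile duct genes lay between 358 and 563 CPM in all 19 libraries, and CD + PE 1 was highest in the other keratins (58.9 CPM).

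Another 24 genes of bile duct epithelium were read beside the 9, of which 20 were tested. Their summed level was 563 CPM in MD + PE 2 and between 358 and 530 CPM elsewhere, and it was led by Onecut2, Cldn3 and Cdh1, which hepatocytes also express. In MD + PE 2, 10 of the 24 were at their highest, among them the tight junction gene Cldn7 (7.92 CPM, at most 1.504 elsewhere), the stem cell antigen Prom1 (15.3 CPM, at most 2.79 elsewhere) and the epithelial transcription factor Ehf (29.5 CPM, at most 2.51 elsewhere). For Cldn7, Prom1, Ehf, Cd24a and Muc1 the next library was CD + Veh 2, the library that was next for Krt19 and Krt7. It was MD + PE 4 for Anxa4, St14, Elf3 and Tspan8, as for Epcam, and CD + PE 5 for Grhl2. Sox9 was at its lowest of all libraries in CD + Veh 2, at 4.30 CPM. The sum of the stomach and gallbladder list in CD + Veh 2 was 4.44 CPM, the highest outside the MD + PE group. Its genes Ctse (1.72 CPM) and Fxyd3 (0.64 CPM) were higher there than in any library other than MD + PE 2 and MD + PE 3. Tff1, Gkn1 and Gkn2 were at 0 in CD + Veh 2, as was their median outside MD + PE 2 and MD + PE 3.

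For MD + PE against CD + PE 5 of the 20 tested duct genes were called, all higher, against 4.61% of all tested genes, and 1 of 20 was called without MD + PE 2. The median log2 fold change of the 20 was 0.58 (0.10 without MD + PE 2), against -0.02 over all tested genes. By edgeR these were Ehf at 3.33 (SE 0.92, adjusted p = 0.034), Tspan8 at 3.02 (SE 0.79, adjusted p = 0.025), Lcn2 at 2.38 (SE 0.67, adjusted p = 0.038), St14 at 2.16 (SE 0.58, adjusted p = 0.029) and Pkhd1 at 0.67 (SE 0.14, adjusted p = 0.0073). Pkhd1, the fibrocystin gene of duct cilia, kept its call without MD + PE 2, at 0.66 (SE 0.16, adjusted p = 0.018). The other 4 lost it, with Lcn2, a secreted iron carrier of acute injury, at 2.41 (SE 0.71, adjusted p = 0.057) and its highest level, 41.8 CPM, in MD + PE 4. For MD + Veh against CD + Veh 1 of 20 was called, against 10.4% of all tested genes: the cadherin Cdh1, which fell by 1.07 on the log2 scale (SE 0.21, adjusted p = 0.0018). For PE on either diet edgeR called 0 of 20, with an unadjusted p below 0.05 in 3 of 20 on CD and 9 of 20 on MD, where 17.5% and 15.7% of all tested genes had one. Without MD + PE 2 the count on MD was 2 of 20.

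Of 16 other keratins 1, Krt10, passed the filter on low counts, and it was called in none of the 5 comparisons, with an unadjusted p of at least 0.05 in each. Krt20, a keratin of gut surface epithelium, measured 33.4 CPM in MD + PE 2, 0.52 CPM in MD + PE 3 and at most 0.20 CPM elsewhere. The keratins of stratified epithelium were found in a different library, CD + PE 1, with Krt13 at 24.2, Krt4 at 14.6, Krt15 at 8.30, Krt5 at 7.72 and Krt14 at 2.24 CPM. In MD + PE 2 these 5 genes had 0 counts or, for Krt4, 1. Skeletal muscle genes summed to 422 CPM in CD + PE 1 and to 3078 CPM in the highest library, MD + Veh 1. Krt8, Krt18 and Krt19 of CD + PE 1 lay within the range of the other CD libraries.

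Of 11 genes that anchor keratin filaments at desmosomes 10 were tested, and for MD + Veh against CD + Veh 2 were called by edgeR, both lower, beside 10.4% of all tested genes: the desmosomal cadherin Dsg2 fell by 0.55 on the log2 scale (SE 0.09, adjusted p = 0.00041) and the linker Ppl by 0.76 (SE 0.24, adjusted p = 0.039). Ppl measured 32.4 CPM in CD + Veh 2, against a CD + Veh mean of 20.7 ± 7.80 CPM (SD, n = 4), and its fall without that library is not reported here. For MD + PE against CD + PE 1 of 10 was called, beside 4.61% of all tested genes: the cadherin Dsc2, higher by 0.41 (SE 0.09, adjusted p = 0.012). For PE on either diet edgeR called 0 of 10, with an unadjusted p below 0.05 in 1 of 10 on each diet, under the 17.5% (CD) and 15.7% (MD) of all tested genes.

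A list of 12 genes of inclusion bodies and keratin stress was tested in full. For MD + Veh against CD + Veh 4 of 12 rose, where 10.4% of all tested genes were called in either direction, with a median log2 fold change of 0.59 over the list and 0.00 over all tested genes. For MD + PE against CD + PE 3 of 12 rose, beside 4.61% of all tested genes, with medians of 0.10 and -0.02. The small heat shock protein Hspb1 rose, in log2 units, by 1.42 (SE 0.25, adjusted p = 0.00079 by edgeR) and 1.57 (SE 0.23, adjusted p = 0.00028). The crosslinking enzyme Tgm2 rose by 0.56 (SE 0.12, adjusted p = 0.0034) and 0.40 (SE 0.11, adjusted p = 0.037), and the ubiquitin gene Ubb by 0.57 (SE 0.13, adjusted p = 0.0052) and 0.49 (SE 0.12, adjusted p = 0.016). Cryab, a heat shock protein that muscle also expresses, rose by 2.47 (SE 0.67, adjusted p = 0.018) in MD + Veh and was lower in MD + PE than in MD + Veh (log2 fold change -2.58, SE 0.63, adjusted p = 0.045). Cryab lost this second call without MD + PE 2 (-2.64, SE 0.70, adjusted p = 0.088 by edgeR), a library where it measured 2.44 CPM. In MD + Veh 1, the library highest in muscle genes, Cryab measured 46.3 CPM. Its MD + Veh mean was 12.7 ± 18.8 CPM (SD, n = 5), with 2.94 CPM in the lowest library, and its CD + Veh mean 2.29 ± 0.316 CPM (SD, n = 4). Cryab is among the 4 of 12 counted above, and its rise without MD + Veh 1 was not tested. Sqstm1, the p62 protein of Mallory-Denk bodies, was called in none of the 5 comparisons. For CD + PE against CD + Veh 0 of 12 were called, with an unadjusted p below 0.05 in 1, beside 17.5% of all tested genes.

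Of 18 genes of the Notch and Hippo pathways, which act upstream of Sox9 in duct formation, 15 were tested. For MD + Veh against CD + Veh 2 of 15 were called, both higher, beside 10.4% of all tested genes. For MD + PE against CD + PE 1 of 15 was called, also higher, beside 4.61% of all tested genes. In log2 units, the Hippo coactivator Wwtr1 rose in MD + Veh against CD + Veh by 0.55 (SE 0.15, adjusted p = 0.016 by edgeR) and in MD + PE against CD + PE by 0.48 (SE 0.14, adjusted p = 0.042), and without MD + PE 2 the second value was 0.46 (SE 0.15, adjusted p = 0.083). The Hippo target Amotl2 rose in MD + Veh by 0.53 (SE 0.14, adjusted p = 0.019). For PE on either diet edgeR called 0 of 15. An unadjusted p below 0.05 was found in 1 of 15 on each diet, under the 17.5% (CD) and 15.7% (MD) of all tested genes. In MD + PE 2 none of the 18 genes was at its highest of the 19 libraries.

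The genes most like Krt8, Krt23, Krt18 and Krt19 across libraries were sought among all tested genes by Spearman's rho of log2 CPM. These values are a description over libraries that share diets and library depth. Krt8 and Krt23 followed each other, with rho = 0.86 over 19 libraries and 0.89 over the 18 without MD + PE 2. Outside the 9 genes, Krt8 was closest to Gpat3 (rho = 0.89), Cidec and Atp9a over 19 libraries and to Notch4 (rho = 0.89), Atp9a and Anxa2 over 18. Krt23 was closest to Fabp4 (rho = 0.89), Cidea and Gpnmb over 19, and to Gm19619 (rho = 0.90), Notch4 and Fabp4 over 18. Gpat3, Cidec, Cidea and Fabp4 act in lipid synthesis, droplet formation and fatty acid binding.

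Krt18 was closest to Nudt18 (rho = 0.86) and the collagen genes Col5a1 and Col3a1 over 19 libraries and to the same 3 genes over 18 (rho = 0.87 for Nudt18). Between the chains of the hepatocyte pair rho was 0.62 over 19 libraries and 0.76 over 18. For Krt19 the closest genes were Cyp2s1 (rho = 0.80), Sparcl1 and Zfp551 over 19 libraries. Between the duct genes Krt19 and Epcam rho was 0.30 over 19 libraries and 0.18 over 18, at counts of 4 to 114 and 14 to 51 outside MD + PE 2.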

How the data were processed

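Poly(A) RNA of mouse liver was sequenced as 19 stranded libraries. The authors trimmed reads with fastp 0.23.4, quantified them against the GRCm39 transcriptome with Salmon 1.10.3 (corrected for sequence bias) and added the transcripts of each gene, so the deposited values are estimated counts, given as whole numbers, that are not normalized. Reads shared by similar transcripts are divided by an estimate, which can move counts between related keratins. The annotation release is not given in the sources used here.

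The 9 genes and the marker lists were chosen with earlier results of these data known. Genes were filtered with edgeR 4.0.16 (filterByExpr by group), scaled by TMM and tested by quasi-likelihood in 1 fit of all 19 libraries (R 4.3.3), and p-values were adjusted by Benjamini-Hochberg over 13597 genes. A call needed an adjusted p below 0.05 and a log2 fold change of at least 0.38. The SE is the fold change divided by the root of F. CPM are TMM-normalized, without the prior count of 2 used for log2 CPM. DESeq2 1.42.0 was an alternative. The ratio of Krt8 to Krt18 was tested by exact permutation over libraries. Named were all 9 genes, up to 6 genes of each list with the largest called changes or, for MD + PE 2, the highest levels, and the 3 nearest genes by Spearman's rho (those of Epcam are not reported here). The rest of the list genes in the text were chosen after their values were seen. No 2 libraries of a group agreed within sampling noise in 36 pairs. The tests were checked on simulated data.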

Additional observations from a re-analysis of the deposited data

Results flagged for a closer look

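In MD + PE, the library MD + PE 2 was far from the other 4 by Dixon's test in 5 genes: Krt7 (13.1 CPM), Krt19 (58.7 CPM), Epcam (29.2 CPM), Cldn4 (2.11 CPM) and Cftr (33.8 CPM). That library was already known to stand apart when the genes were chosen, so these values are a description. In CD + Veh, Krt19 of CD + Veh 2 (8.17 CPM) was far above the other 3 libraries. At the low end, the same test picked Cldn4 in CD + PE 1 (0 CPM, where the other 4 libraries had 1 count each) and Cftr in MD + Veh 3 (0 CPM, where the other 4 had 5 to 8 counts). For Cldn4 this is a step of 1 count, within the 3 counts that a 0 allows, and is no difference. Chance picks about 1 in 20 groups, 40 groups of values were examined, and the genes come from the same libraries.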

How the results depend on the processing

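Of 487 alternative values of 17 single-gene fold changes, 476 kept their direction and their side of the threshold, 0 lost a call, 7 gained one and 4 changed sign. These 17 were a chosen part of the tested genes and comparisons. Outside them, 6 fold changes, with 0 calls, varied in sign over the fits without 1 library. These were Krt19 (-1.47 to 0.075), Krt7 (-0.60 to 0.053) and Sox9 (-0.13 to 0.19) in CD + PE against CD + Veh. The rest were Krt19 (-1.04 to 0.43) and Krt7 (-0.27 to 0.39) in MD + Veh against CD + Veh, and Krt18 (-0.054 to 0.21) in MD + PE against MD + Veh. By DESeq2, 1 of the 6 genes it tested was called in MD + PE against MD + Veh, beside 303 of 14110 genes. In MD + PE against CD + PE it called 4 of 6, beside 796 of 14574 genes. Leaving out each library in turn in the edgeR fit gave 2 to 5 calls in that comparison, with 5 (Krt7, Krt19 and Epcam besides Krt8 and Krt23) without MD + PE 1. Among the 17 fold changes, the sign changed for Krt8 in CD + PE against CD + Veh when a division between library numbers 45 and 46 was a covariate (0.17). It also changed for Krt19 in MD + PE against MD + Veh over the fits without 1 library (-0.30 to 3.16). Leaving out MD + PE 2 and MD + PE 3 together, an alternative chosen after seeing the data, gave Krt19 log2 fold changes of -0.68 against MD + Veh and -0.33 against CD + PE, and called Krt18 against CD + PE (0.57, adjusted p = 0.014 by edgeR). Without a filter on low counts Cftr was tested and called in MD + PE against CD + PE (5.18, adjusted p = 0.041). Leaving out 1 library moved the log2 difference of the Krt8 to Krt18 ratio between 0.034 and 0.22 (MD + PE against MD + Veh), 0.11 and 0.22 (MD + Veh against CD + Veh) and 0.30 and 0.49 (MD + PE against CD + PE); the adjusted exact p fell below 0.05 without MD + PE 1 for the first (0.048) and the third (0.032) and without CD + Veh 4 for the second (0.036). The cause of these changes was not tested. Libraries with the same replicate number showed no common deviation at the median (r = 0.03 over 27 pairs), with a range from -0.25 to 0.41 and 6 pairs above 0.1. A fit with the replicate number as a block gave 0, 0, 1, 2 and 0 calls in the 5 comparisons, with Krt23 at 1.67 and 2.94 and Krt8 at 0.72, and changed no call. At counts of 6 to 30 per library, as for Krt7 outside MD + PE 2, small differences were not detectable.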

Other observations

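MD + PE 4 was the highest of the 19 libraries for Krt8 (407 CPM) and Krt18 (248 CPM), and also for the secreted duct and injury genes Spp1 (85.3 CPM) and Lcn2 (41.8 CPM), while its Krt19 (1.37 CPM) and Krt7 (1.58 CPM) lay within the range of the other groups. Its Sox9 (14.0 CPM) was level with that of MD + PE 2 (14.2 CPM). These values were noticed after the data were seen and were not tested.

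Per kilobase of transcript, the order of the duct genes in MD + PE 2 was Krt19 (37.2 CPM per kilobase), Epcam (16.7), Cftr (5.36), Sox9 (3.41), Krt7 (3.21) and Cldn4 (1.16).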
